A study of Mus musculus with 18 samples.

Results

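The genes described here are 43 whose products enter, run or finish mitosis: the mitotic cyclins and their kinase, the kinases that drive spindle assembly and the checkpoint, the kinetochore, the spindle motors, the cytokinesis proteins, the condensins and the machinery that starts anaphase. They were taken by name from a list, each through the brightest of its probes that passed the filter on dim signal, and all 43 had such a probe. They stand among 14543 genes with a symbol and 22855 features in all. The samples were explant cultures of mouse dorsal root ganglia, the clusters of sensory neurons beside the spinal cord, with the Schwann cells, fibroblasts and other cells that come with them. All cultures came from C57BL/6J embryos of embryonic day 13.5, were grown on matrigel and spent 12 days in growth medium before the first collection. RNA was collected before myelination medium was added (day 0), after 10 days in it, when myelination was early (day 10), and after 22 days in it, when mature sheaths were seen (day 22). Each day had 3 batches of cultures from separate pools of embryos, and each batch was measured on 2 one-colour Agilent arrays, which are technical repeats. No genotype or drug differed between the groups. Every culture of days 10 and 22 was both older and longer in myelination medium than those of day 0, so time in culture and medium cannot be told apart.

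Cells that divide make these transcripts mainly in G2 and M phase, after DNA replication, and transcription factors such as FOXM1 and MYBL2 with the MuvB complex switch them on together. Cyclin B with CDK1 starts mitosis, the kinetochore ties each chromatid to spindle microtubules, the checkpoint holds anaphase back until every chromosome is attached, and the anaphase-promoting complex then frees separase and ends the mitosis. In a peripheral ganglion the neurons have left the cell cycle, while Schwann cell precursors and immature Schwann cells divide before they leave the cycle to make myelin, and fibroblasts, endothelial cells and macrophages can divide too.

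The arrays were alike in brightness: the 75th percentile of the signal ran between 584.1 and 746.7 over the 18 arrays, 54.8% to 61.5% of spots were well above background, and none was saturated. All 6 Schwann cell markers and all 6 neuron markers examined were well above background on every array. The labels of the arrays disagree within a day. The authors' deposited value table has 18 columns, of which 6 match the array filed under their own sample. The other 12 match an array filed under a different sample, always of the same day, so the day of every array is settled and its batch is not. Tests were therefore run with the batches of the array files, and results with the batches as the table has them (the table's batches) stand beside them. An array of day 22 (batch 3, array 1) was the lowest of its day for 39 of the 43 genes, and an array of day 10 (batch 3, array 2) was the lowest of its day for 40.

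Transcripts of the mitotic genes fell over both intervals. On day 10, 41 of the 43 were lower than on day 0, against 17.8% of all features, and the median difference was -1.15 on the log2 scale, which left 45.2% of the day 0 level. On day 22, 41 were lower than on day 10, against 5.43% of all features, with a median difference of -1.70. Over the whole course 42 were lower on day 22 than on day 0, against 27.3% of all features, the median difference was -2.82 and 14.1% of the day 0 level was left at the median. The exception was Pttg1, which encodes securin and was higher on days 10 and 22 than on day 0. The median difference over all features was -0.06, -0.02 and -0.08 in the same order of comparisons. Each call rests on limma with Benjamini-Hochberg adjustment over all 22855 features at 0.05, with 3 batches a day. Cenpf, Ttk and Ncapg passed the filter on dim signal through day 0 alone, which favoured a fall for them in every count here. With probes well above background on all arrays, 36 genes were tested. Of these, 34 were lower on day 10 than on day 0, 34 on day 22 than on day 10 and 35 on day 22 than on day 0. The share of all features is not given for that filter.

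The calls of the single intervals depend on which batch an array belongs to, and those of the whole course do not. Arrays of a batch were more alike under the table's batches, with an estimated correlation of 0.36, against -0.02 under those of the array files. With the table's batches, 31 of the 43 genes were lower on day 10 than on day 0 (7.94% of all features) and 35 lower on day 22 than on day 10 (1.48% of all features), while 42 were again lower on day 22 than on day 0 (19.2%). The calls lost were those of Mki67, Ccna2, Kif23, Cenpa, Ndc80, Nuf2, Spc25, Ttk, Nek2 and Ncapg on day 10 against day 0, and those of Ccnb2, Ndc80, Ttk, Nek2, Smc4 and Espl1 on day 22 against day 10. Those batches with the batch number as a block gave 26 genes lower on day 10 than on day 0 (8.90% of all features). The arrays themselves were well apart. All 6 arrays of day 10 lay below all 6 of day 0 for 40 genes (9.18% of all features), all except Kif23, Ncapg and Pttg1. All 6 arrays of day 22 lay below all 6 of day 10 for 40 genes (5.49%), all except Cenpa, Ttk and Pttg1, and below all 6 of day 0 for 42 (13.3%). In bulk RNA of a culture, fewer dividing cells and less RNA per cell cannot be told apart.

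**Figure D1:**
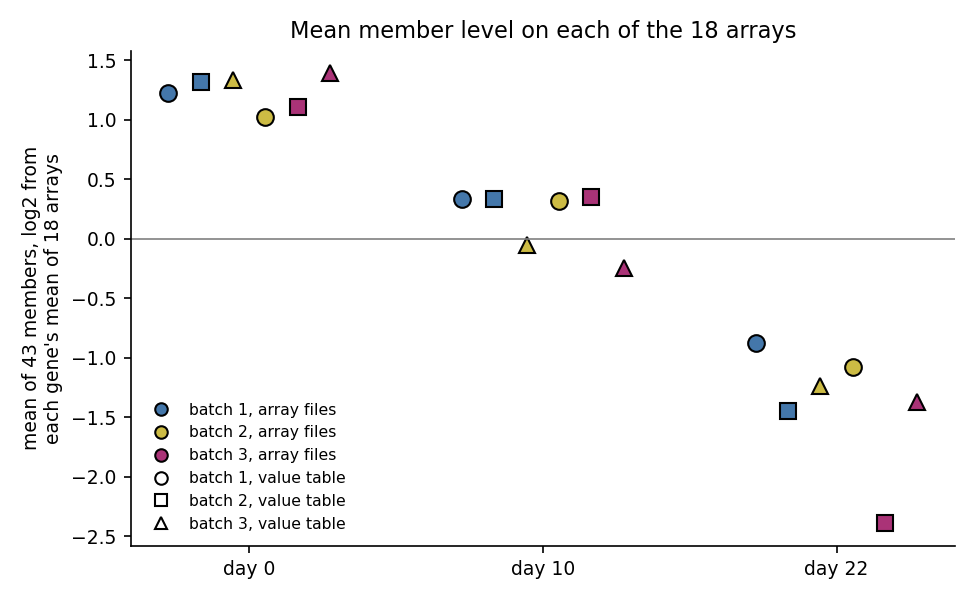
Mean level of the 43 mitotic genes on each of the 18 arrays by day, as the mean log2 deviation of each gene from its own mean over the 18 arrays; fill colour gives the batch of the array files and marker shape that of the value table. The arrays ran from 1.02 to 1.39 on day 0, from -0.25 to 0.35 on day 10 and from -2.39 to -0.88 on day 22, without overlap between days.

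Without the low array of day 22 the median difference between day 22 and day 0 was -2.64, and 42 genes were still lower. With both low arrays left out, 41 genes were lower on day 10 than on day 0 and 42 lower on day 22 than on day 10, and the table's batches then gave 37 and 39. The share of all features called is not given for these fits, so their counts show only how the calls moved. The 18 arrays sat on 3 slides, and slides 1 and 2 held arrays of all days. Within slide 1 the median difference was -1.22 for day 10 against day 0, -1.36 for day 22 against day 10 and -2.57 for day 22 against day 0. Within slide 2 these medians were -1.05, -2.07 and -3.31. In each of these 6 comparisons 42 of the 43 genes were below 0 and Pttg1 above it. In the fit of all arrays, 58.3%, 54.1% and 58.6% of all features were below 0, in the same order of comparisons. Both arrays of day 22 on slide 1 were of batch 1 of the array files. Day 22 thus rests on a single batch value there.

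**Figure D2:**
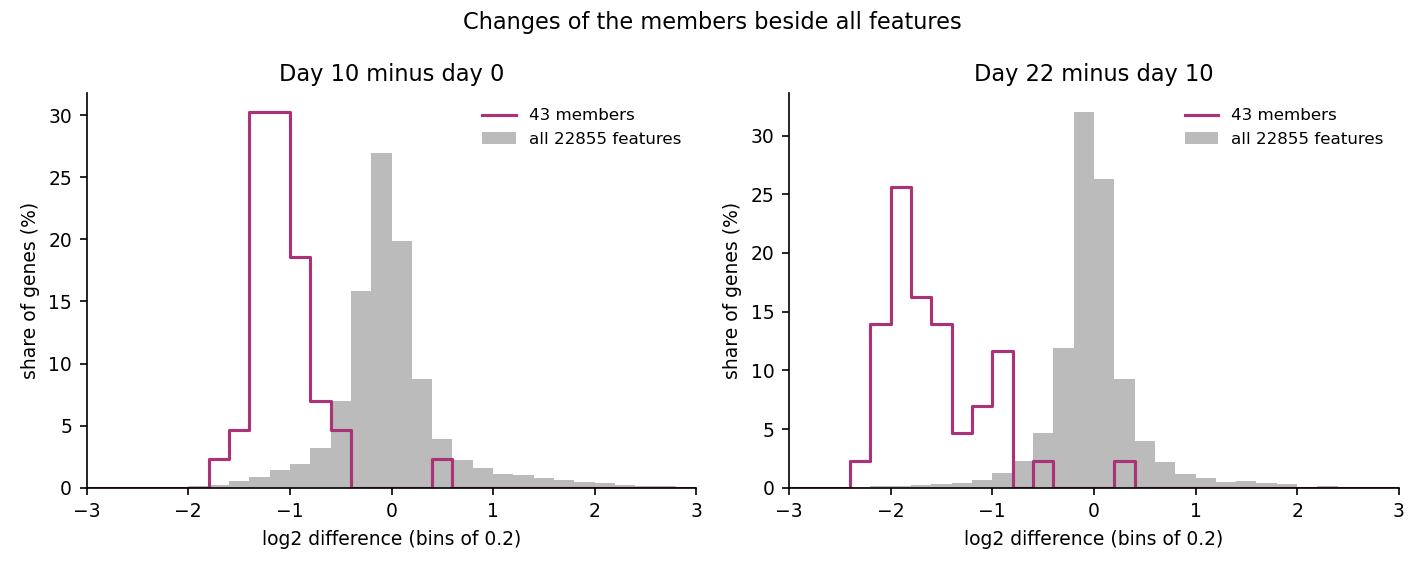
Distribution of the log2 difference between day 10 and day 0 (left) and between day 22 and day 10 (right) for all 22855 features (grey bars) and for the 43 mitotic genes (line), each as a share of its own set in bins of 0.2. The mitotic genes centre on -1.15 and -1.70, and all features on -0.06 and -0.02.

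The size of the decline from day 0 to day 22 differed among the genes. Of the 39 falling genes whose signal was well above background on at least some arrays of day 22, 15 were at least 8-fold lower on day 22, 18 were 4- to 8-fold lower and 6 were 2- to 4-fold lower. Over all features 325, or 1.42%, were at least 4-fold lower. Kif11, Kif4, Top2a, Nusap1 and Spc24 had the largest differences among them, between -3.51 and -3.30, and Smc4, Mad2l1, Espl1, Cks2 and Smc2 the smallest of the genes that fell, between -1.14 and -1.88. The probes of Cenpf, Ttk and Ncapg were not well above background on any array of day 22, so their fold change is a bound taken from the lowest signal well above background on each array. Cenpf was at least 3.88-fold lower, Ttk at least 4.06-fold and Ncapg at least 4.05-fold lower on day 22 than on day 0. Their place in the order of sizes is therefore unknown, and with them at their bounds the median over the 43 genes was -2.77. On day 10 the probes of Cenpf and Ttk were well above background on 3 of the 6 arrays, and that of Ncapg on 5. The sizes of their changes over single intervals are therefore uncertain too. Levels here are log2 signals relative to the array's 75th percentile. They compare days for 1 probe and are not set against those of another gene.

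The promoters of these genes are shown because the genes moved together and because such promoters are known for a pair of short motifs. One is the cell cycle genes homology region (CHR), which the MuvB complex binds. The other is the CCAAT box, bound by NF-Y. RefSeq windows of GRCm38.p6 from 250 bases before to 50 after the start were at hand for 37 of the 43 genes; those of Ccna2, Foxm1, Kif20a, Smc4, Spc24 and Tpx2 were not. A CHR, searched as TTTGAA or TTCGAA on both strands (TTCAAA on the other strand), was found in 28 of the 37, or 75.7%, against 20.2% of the windows of 17492 protein-coding genes. A CCAAT box, searched as CCAAT on both strands (ATTGG on the other), was found in 29, or 78.4%, against 42.3%. At least 2 CCAAT boxes were found in 51.4% of the 37, against 14.6%, and both motifs in 67.6%, against 9.24%. Matches of the 2 motifs can share no more than a single base. The windows of 5 genes are printed 5′ to 3′ on the gene's strand, with both motifs in capitals. They are Ccnb2 (chr9:70421505-70421804, minus strand), which holds 2 CHRs and 3 CCAAT boxes, its kinase Cdk1 (chr10:69352863-69353162, minus strand), with the same numbers, Plk1 (chr7:122159185-122159484, plus strand) and Kif11 (chr19:37376132-37376431, plus strand), with 1 of each, and Pttg1 (chr11:43425932-43426231, minus strand), with neither.
Ccnb2: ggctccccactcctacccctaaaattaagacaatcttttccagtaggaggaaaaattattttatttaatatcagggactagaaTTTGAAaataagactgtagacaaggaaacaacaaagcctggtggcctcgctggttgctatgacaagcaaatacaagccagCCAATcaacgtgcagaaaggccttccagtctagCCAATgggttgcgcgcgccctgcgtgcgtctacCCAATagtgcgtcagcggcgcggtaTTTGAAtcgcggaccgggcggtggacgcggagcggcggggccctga
Cdk1: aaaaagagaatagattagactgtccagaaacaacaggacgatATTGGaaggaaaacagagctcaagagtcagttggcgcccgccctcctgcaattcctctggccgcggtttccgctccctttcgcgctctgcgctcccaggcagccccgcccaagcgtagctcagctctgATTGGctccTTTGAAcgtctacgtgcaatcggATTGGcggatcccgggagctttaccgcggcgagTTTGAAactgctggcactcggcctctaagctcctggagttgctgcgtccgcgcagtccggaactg
Plk1: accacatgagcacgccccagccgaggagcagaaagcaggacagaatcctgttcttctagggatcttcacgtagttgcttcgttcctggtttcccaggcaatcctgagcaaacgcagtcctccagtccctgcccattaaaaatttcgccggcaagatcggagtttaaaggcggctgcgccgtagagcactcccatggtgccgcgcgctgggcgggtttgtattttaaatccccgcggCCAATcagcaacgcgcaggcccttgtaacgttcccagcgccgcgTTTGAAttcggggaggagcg
Kif11: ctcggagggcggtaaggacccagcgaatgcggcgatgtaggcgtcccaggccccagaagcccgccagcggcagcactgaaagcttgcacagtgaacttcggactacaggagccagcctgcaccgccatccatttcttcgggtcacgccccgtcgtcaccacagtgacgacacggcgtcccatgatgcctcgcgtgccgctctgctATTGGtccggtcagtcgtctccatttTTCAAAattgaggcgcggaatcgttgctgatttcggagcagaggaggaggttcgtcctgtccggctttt
Pttg1: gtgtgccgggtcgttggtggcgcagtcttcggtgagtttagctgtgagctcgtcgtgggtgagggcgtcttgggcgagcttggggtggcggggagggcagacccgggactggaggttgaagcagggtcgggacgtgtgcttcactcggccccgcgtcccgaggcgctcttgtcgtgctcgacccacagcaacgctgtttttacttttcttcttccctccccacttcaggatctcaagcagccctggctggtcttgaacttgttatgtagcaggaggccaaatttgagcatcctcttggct
Neither motif was found in Birc5, Mad2l1, Nuf2 and Nusap1 either, and all of these fell. The median difference between day 22 and day 0 was -2.86 over the 28 genes with a CHR and -2.82 over the 9 without one. It was -2.82 over the 29 genes with a CCAAT box and -2.85 over the 8 without. A match is a run of letters and not a shown binding site.

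Cyclins, their kinase and the factors that induce them came down together. All 6 were lower on day 22 than on day 0, with a median difference of -2.77, after medians of -1.07 over the first interval and -1.77 over the second. Cdk1, the kinase that starts mitosis, had levels of 0.95, 1.34 and 1.58 (lowest, median and highest of 6 arrays) on day 0, -0.26, 0.24 and 0.33 on day 10, and -3.35, -1.53 and -0.87 on day 22. The days did not overlap, and 12.4% of the day 0 level was left on day 22. Its difference between day 22 and day 0 was -3.01 ± 0.30 (SE, limma adjusted p = 0.000151). The other probes of Cdk1 disagreed in size. A probe well above background on 16 arrays gave a difference of only -1.12, and another, well above it on 12, gave -3.42. Ccnb1, cyclin B1, the partner of CDK1, had levels of 2.20, 2.59 and 2.78 on day 0, 0.98, 1.49 and 1.73 on day 10, and -2.11, -0.58 and 0.01 on day 22. That left 10.6% of the day 0 level on day 22, and its 3 probes had differences of -3.12 to -3.24. Ccna2, cyclin A2, which acts from S phase into early mitosis, was left at 10.8%.

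Ccnb2, cyclin B2, was the only falling gene without a call on day 10. Its difference between day 10 and day 0 was -0.78 ± 0.29 (SE, limma adjusted p = 0.0746, and 0.195 under the table's batches). All 6 arrays of day 10, at 1.51 to 2.41, nevertheless lay below those of day 0, at 2.72 to 3.24. By day 22 it had 17.4% of its day 0 level. Foxm1, the forkhead factor that induces many genes of this list, had levels of 0.13, 0.49 and 0.69 on day 0, -0.74, -0.52 and -0.22 on day 10, and -2.70, -1.83 and -1.47 on day 22. Foxm1 thus fell in both intervals, by 0.98 ± 0.13 and by 1.43 ± 0.13 on the log2 scale (SE, batches of the array files). Under the table's batches the SE was 0.20 for each interval, and both falls were still called. Cks2, a small protein that binds CDK1, declined least of the 6 and kept 29.9% of its day 0 level.

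**Figure D3:**
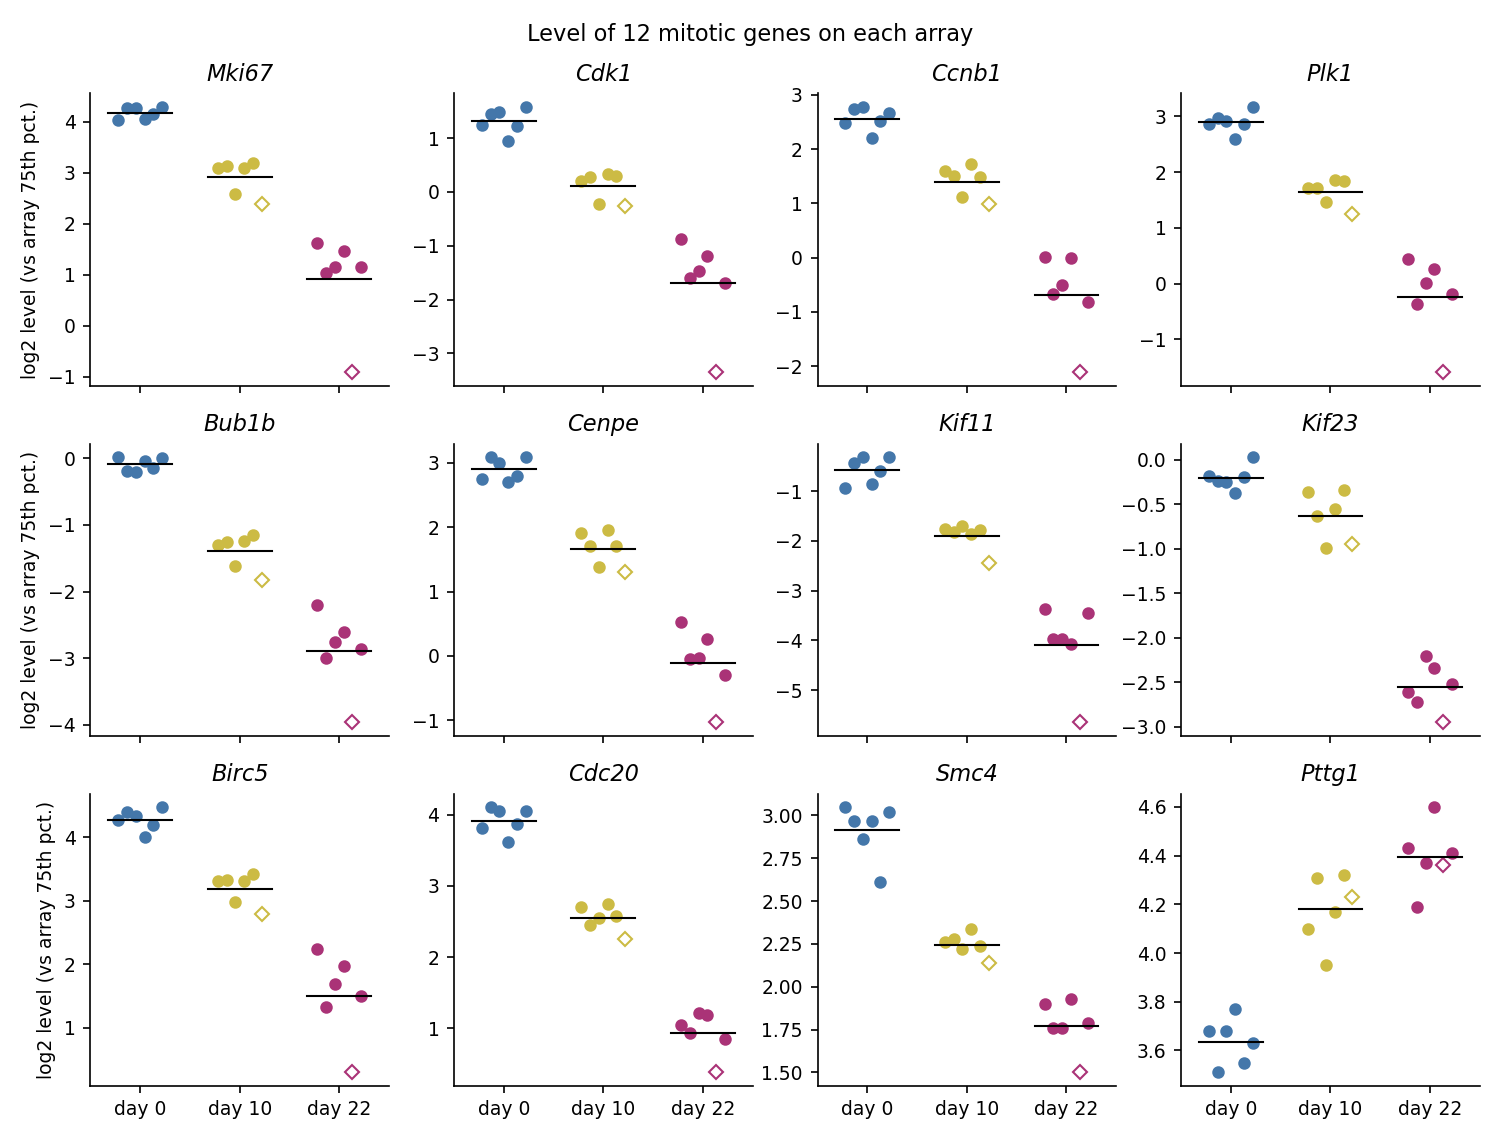
Levels of 12 mitotic genes on each array, as log2 signal relative to the array's 75th percentile, by day in myelination medium; points are arrays (6 a day), lines are day means, and open diamonds mark the low arrays of days 10 and 22. Pttg1 is highest on day 22 and the other 11 are lowest there, and the axes differ between genes.

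The mitotic kinases had a median difference of -1.24 over the first interval, -1.70 over the second and -2.90 over the whole course, and all 6 were lower on day 22 than on day 0. These medians take Ttk at its measured signal, though only a bound can be given for it on day 22. Plk1, polo-like kinase 1, which acts in centrosome maturation, kinetochore attachment and cytokinesis, had levels of 2.60, 2.89 and 3.17 on day 0, 1.25, 1.71 and 1.86 on day 10, and -1.59, -0.08 and 0.44 on day 22. Its arrays were separated by day, with 42.0% of the day 0 level left on day 10 and 11.4% on day 22. Aurka, the centrosomal Aurora kinase, fell less far and was left at 21.1% on day 22. Among the checkpoint kinases, Bub1 was left at 12.7% and Bub1b, which encodes the checkpoint protein BUBR1, at 14.3%. Bub1b had levels of -0.20, -0.09 and 0.02 on day 0, -1.83, -1.27 and -1.15 on day 10, and -3.96, -2.80 and -2.20 on day 22. Ttk, the checkpoint kinase MPS1, and Nek2, a centrosome kinase, were the 2 of the group whose calls in both single intervals were lost with the table's batches. For Ttk the adjusted p was then 0.0640 for day 10 against day 0 and 0.0968 for day 22 against day 10, and for Nek2 0.0661 and 0.0827 (limma).

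Kinetochore and centromere genes had a median difference of -2.96 between day 22 and day 0, and all 8 were lower. This median takes Cenpf at its measured signal, though only a bound can be given for it. The 4 subunits of the NDC80 complex, which grips the microtubule, kept these shares of their day 0 levels on day 22: Spc24 at 10.2%, Nuf2 at 11.6%, Ndc80 at 13.2% and Spc25 at 19.1%. Spc24 had levels of 0.36, 0.57 and 0.76 on day 0, -0.96, -0.57 and -0.40 on day 10, and -4.01, -2.55 and -2.22 on day 22. Its drop was called in both intervals under both batch assignments, while for Ndc80, Nuf2 and Spc25 the call on day 10 was lost with the table's batches (adjusted p of 0.0556, 0.0528 and 0.0669, limma). For Ndc80 the call on day 22 against day 10 was lost as well (adjusted p = 0.0543). Cenpe, the kinesin of the kinetochore that brings chromosomes to the spindle equator, had 42.5% of its day 0 level on day 10 and 12.5% on day 22.

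Cenpa and Mad2l1 had the smallest differences of the kinetochore and centromere genes between day 22 and day 0. Differences between genes were not tested. Cenpa, the histone H3 variant that marks the centromere, had levels of 1.36, 1.53 and 1.75 on day 0, -0.06, 0.60 and 0.81 on day 10, and -1.55, -0.60 and 0.50 on day 22. The arrays of days 22 and 10 overlapped, and the difference of -0.91 ± 0.28 between them was not called (SE, limma adjusted p = 0.0795). Its difference of -2.0 ± 0.28 between day 22 and day 0 was called. Mad2l1, which encodes the checkpoint protein MAD2, had levels of 2.04, 2.24 and 2.42 on day 0, 1.48, 1.79 and 1.91 on day 10, and 0.63, 0.85 and 1.04 on day 22. It kept 37.8% of its day 0 level, and its 3 probes had differences of -1.34 to -1.41.

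Spindle motors and spindle assembly genes had the largest median difference of the 7 roles between day 22 and day 0, -3.03, and all 9 were lower. Kif11, the kinesin that pushes the spindle poles apart, had levels of -0.93, -0.51 and -0.31 on day 0, -2.45, -1.80 and -1.70 on day 10, and -5.65, -3.98 and -3.38 on day 22. On day 22, 8.77% of its day 0 level was left, and on 5 of that day's 6 arrays its signal was well above background. Kif4, a chromosome-bound kinesin, was left at 8.90%, Nusap1, a microtubule-bundling protein, at 10.1%, and Kif2c, which takes microtubules apart at the centromere, at 12.1%. Kif20a, needed in the central spindle, was left at 12.3%, Tpx2, which activates Aurora A on the spindle, at 14.6%, and Prc1, which bundles antiparallel microtubules, at 16.1%. A second probe of Tpx2 differed by -2.08 between day 22 and day 0, where the probe used differed by -2.77. Hmmr, a spindle protein and hyaluronan receptor, kept 19.5%.

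Kif23, the motor subunit of the centralspindlin complex, had most of its difference in the second interval. It had levels of -0.38, -0.22 and 0.03 on day 0, -0.99, -0.59 and -0.34 on day 10, and -2.95, -2.56 and -2.21 on day 22. Arrays of day 10 overlapped those of day 0, with 74.1% of the day 0 level left, and those of day 22 lay far below both. The difference between day 10 and day 0 was -0.43 ± 0.14 (SE, limma adjusted p = 0.0442, and 0.126 with the table's batches), and that between day 22 and day 10 was -1.92 ± 0.14 (adjusted p = 0.000795, and 0.00940).

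**Figure D4:**
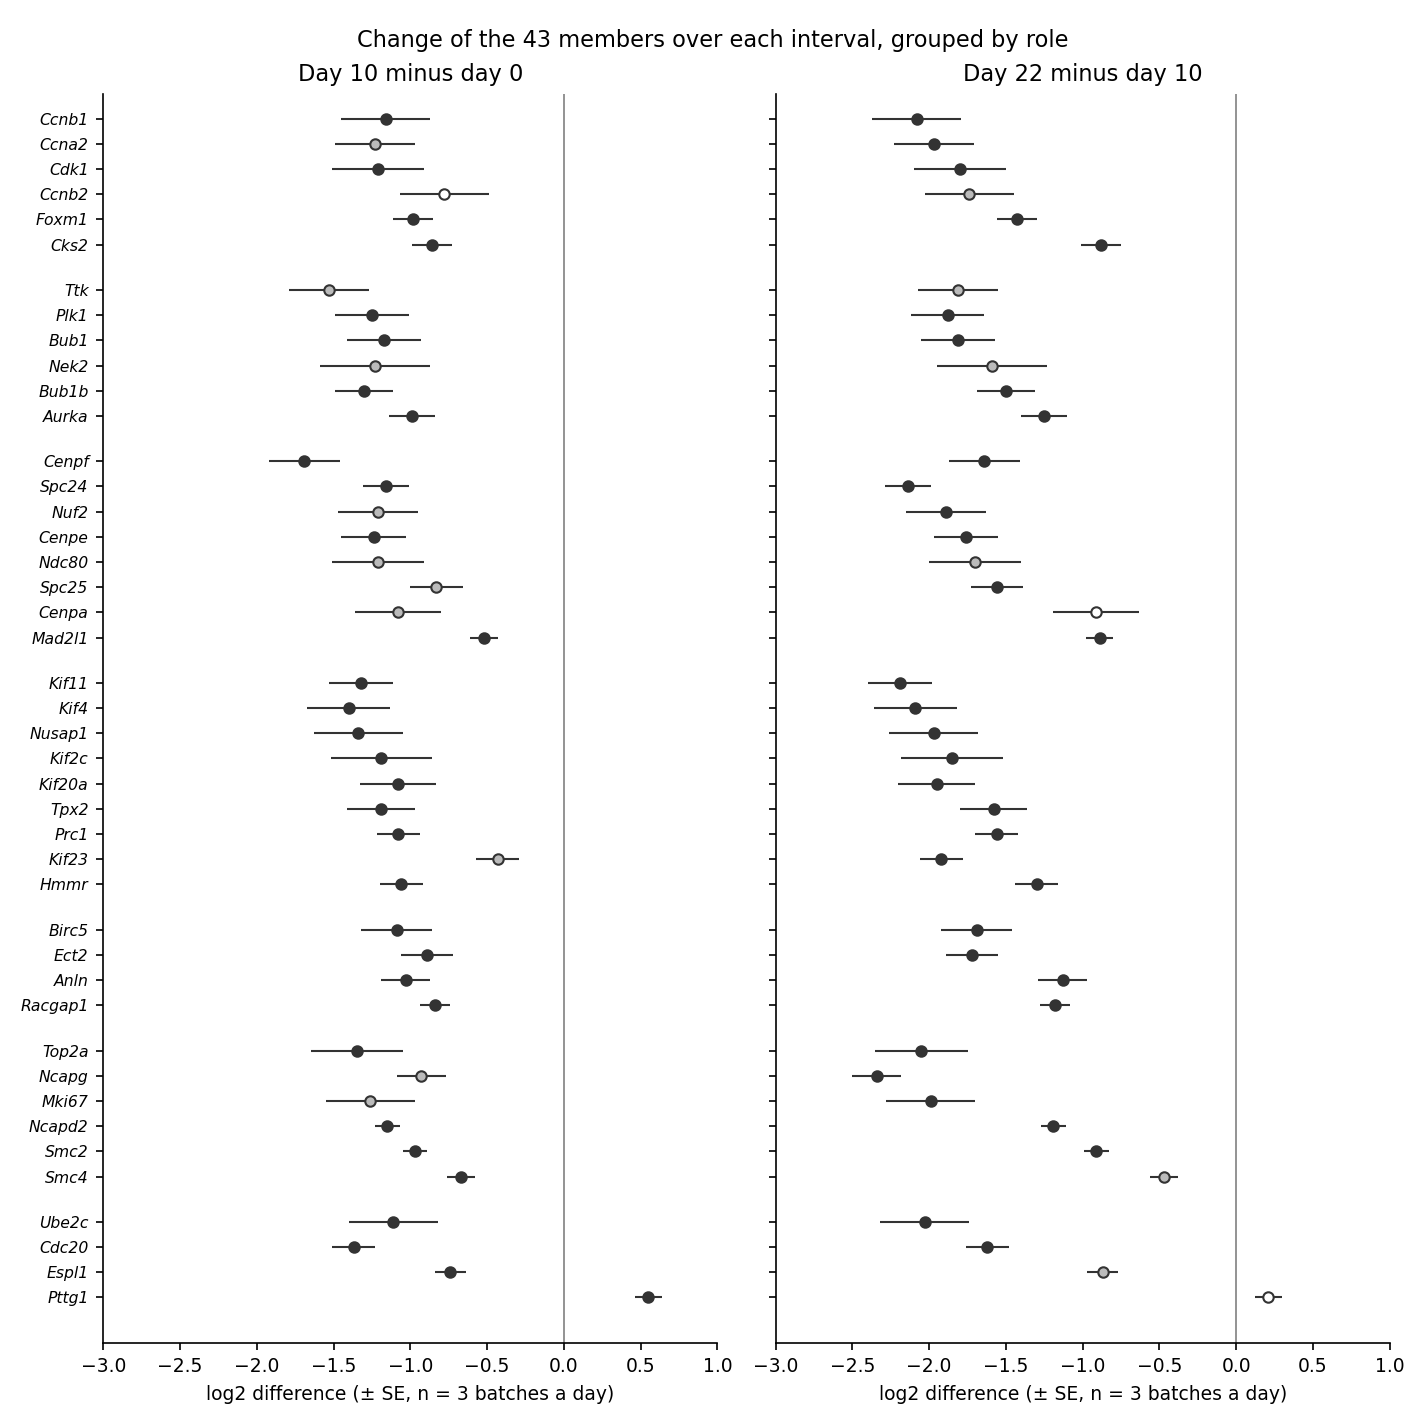
Log2 difference (± SE, 3 batches a day) of each of the 43 genes between day 10 and day 0 (left) and between day 22 and day 10 (right), grouped by role from cyclins at the top to anaphase genes at the bottom; black points were called under both batch assignments, grey points with the batches of the array files only, and open points with neither. Of the 43, 42 lie below 0 in both panels and Pttg1 lies above it.

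Cytokinesis genes had a smaller median difference, -2.38 between day 22 and day 0, and all 4 were lower in both intervals under both batch assignments. With the batch number as a block on the table's batches, the call was lost for Birc5 on day 10 against day 0 (limma adjusted p = 0.0593) and for Anln on day 22 against day 10 (adjusted p = 0.0571). Birc5, survivin, a subunit of the chromosomal passenger complex that also acts at the midbody, had levels of 4.01, 4.30 and 4.48 on day 0, 2.80, 3.31 and 3.42 on day 10, and 0.30, 1.60 and 2.24 on day 22. Its 3 probes had differences of -2.76 to -2.79 between day 22 and day 0. Ect2, the exchange factor that turns on RhoA at the cell equator, was left at 16.5% on day 22, Anln, the contractile ring scaffold anillin, at 22.4%, and Racgap1, the partner of KIF23 in centralspindlin, at 24.6%. Racgap1 was left at 55.7% on day 10, where Kif23 was left at 74.1%. The difference between these partners was not tested.

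Subunits of the condensin I complex, which compacts mitotic chromosomes, differed in how much was left. Smc4 kept 45.4% of its day 0 level on day 22, Smc2 27.2% and Ncapd2 19.8%. For Ncapg only the bound of at least 4.05-fold lower can be given, so its place beside Ncapd2 is unknown. Smc4 had levels of 2.61, 2.97 and 3.05 on day 0, 2.14, 2.25 and 2.34 on day 10, and 1.5, 1.77 and 1.93 on day 22, so its days did not overlap although its decline was small. Smc2 and Smc4 form the core shared with condensin II, while Ncapd2 and Ncapg belong to condensin I alone. Top2a, the topoisomerase that untangles chromatids, had levels of 1.61, 1.90 and 2.09 on day 0, -0.01, 0.74 and 0.79 on day 10, and -3.21, -1.27 and -0.80 on day 22, and was left at 9.49%. Mki67, the gene of the proliferation antigen Ki-67, which coats mitotic chromosomes, had levels of 4.04, 4.20 and 4.29 on day 0, 2.38, 3.10 and 3.18 on day 10, and -0.91, 1.16 and 1.63 on day 22. That left 41.7% of its day 0 level on day 10 and 10.5% on day 22, and its other probe differed by -3.30 between day 22 and day 0.

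The genes of anaphase went 2 ways. Cdc20, which activates the anaphase-promoting complex, had levels of 3.61, 3.96 and 4.11 on day 0, 2.25, 2.56 and 2.75 on day 10, and 0.38, 0.99 and 1.21 on day 22. It fell in both intervals under both batch assignments and was left at 12.6%. Ube2c, the ubiquitin-conjugating enzyme of that complex, was left at 11.3%, and Espl1, the protease separase that cuts cohesin, at 32.8%. Pttg1 encodes securin, the inhibitor that holds separase until anaphase and is itself destroyed through the anaphase-promoting complex. Its levels were 3.51, 3.66 and 3.77 on day 0, 3.95, 4.20 and 4.32 on day 10, and 4.19, 4.39 and 4.60 on day 22. Every array of days 10 and 22 lay above every array of day 0, while days 10 and 22 overlapped.

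Pttg1 rose by day 10, with a difference of 0.55 ± 0.09 from day 0 (SE, limma adjusted p = 0.00309, and 0.0159 with the table's batches). In that comparison 11.4% of all features were called higher, and 5.89% under the table's batches. The further difference of 0.21 ± 0.09 between day 22 and day 10 was not called (adjusted p = 0.165). Between day 22 and day 0 the difference was 0.76 ± 0.09 (adjusted p = 0.000287, and 0.00151), and 17.1% of all features were called higher, or 13.0% under the table's batches. Its second probe gave 0.54 for day 10 against day 0 and 0.95 for day 22 against day 0. Both probes were thus above 0 where its partner Espl1 was at -1.61 ± 0.10. Whether the probes read securin transcripts alone was not tested.

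For most of these genes the estimated change was more negative over the second interval than over the first, but few of these contrasts were called. The change from day 10 to day 22 was more negative than that from day 0 to day 10 in 39 of the 43 genes, against 46.4% of all features. The contrast of the 2 intervals was called in 2 genes, against 1.70% of all features. These were Kif23, at -1.49 ± 0.23 (SE, limma adjusted p = 0.0187), and Ncapg, at -1.41 ± 0.27 (adjusted p = 0.0347). Both calls were lost with the table's batches, under which the share of all features called in this contrast was 0%. Ncapg was not well above background on day 22, so the size of its second interval is uncertain. The 2 intervals share the day 10 arrays and are of unequal length.

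Other genes of the division cycle, from lists drawn up by function, placed the 43 genes in the wider machinery. Of 56 other mitotic regulators tested, 52 were lower on day 22 than on day 0, with a median difference of -2.46, led by the kinesin Kif15 at -3.69, the phosphatase Cdc25c at -3.60 and the kinesin Kif18b at -3.50. Cep55 (-0.17), Knstrn (-0.18), Zwint (0.18) and Ska2 were the 4 not called. The probes of Aurkb were too dim to be tested, and Kif14 had no matched probe. All 28 DNA replication genes tested were lower, against the same 27.3% of all features, with a smaller median of -1.34. Uhrf1, which couples replication to DNA methylation, differed by -3.28, the ribonucleotide reductase subunit Rrm2 by -2.84 and the helicase subunit Mcm5 by -2.41, and Pcna and Tyms changed least, at -0.69 and -0.64.

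Complexes that also work outside mitosis had smaller median differences. Their counts are to be read against the 27.3% of all features called lower on day 22 than on day 0 (19.2% under the table's batches) and the 17.1% called higher (13.0%). Of the 10 cohesin genes, 6 were lower on day 22 than on day 0 and Wapl, the cohesin release factor, was higher, at 0.22 ± 0.08 (SE, limma adjusted p = 0.0478, and 0.0769 with the table's batches); the median was -0.29, 4 were lower under the table's batches, and Rad21, the subunit that separase cuts, differed most, at -0.71. Of 15 anaphase-promoting complex genes 7 were lower, with a median of -0.24 and the largest difference, -0.75, in Cdc23. All 3 condensin II genes were lower, with a median of -1.05. At the centromere, 6 of 7 Mis12 complex and constitutive genes were lower and Cenpb was higher, at 0.31, with a median of -0.81 and the largest difference, -2.38, in Nsl1. Of the 7 other checkpoint genes 4 were lower: Kntc1 at -2.23 and Zwilch at -2.22, both of the complex that brings dynein to kinetochores, and Mad1l1 and Bub3 at -0.67 and -0.45. Zw10, the partner of Kntc1 and Zwilch, stood at -0.03 ± 0.07 and was not called.

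Among the listed regulators of these genes, Rbl1 had the largest difference. Of 10 genes of the DREAM and MuvB complexes and the pocket proteins, 6 were lower on day 22 than on day 0, against 27.3% of all features, with a median difference of -0.39. Rbl1, which encodes p107, differed by -2.17 ± 0.17 (SE, limma adjusted p = 5.09e-05). Rbl2, which encodes p130, was higher by 0.28 ± 0.08 (adjusted p = 0.0226, and 0.0729 with the table's batches), and Rb1 stood at -0.08. Of all features, 17.1% were called higher in this comparison. Under the table's batches, 4 of the 10 were lower, against 19.2% of all features, and none was higher, against 13.0%.

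**Figure D5:**
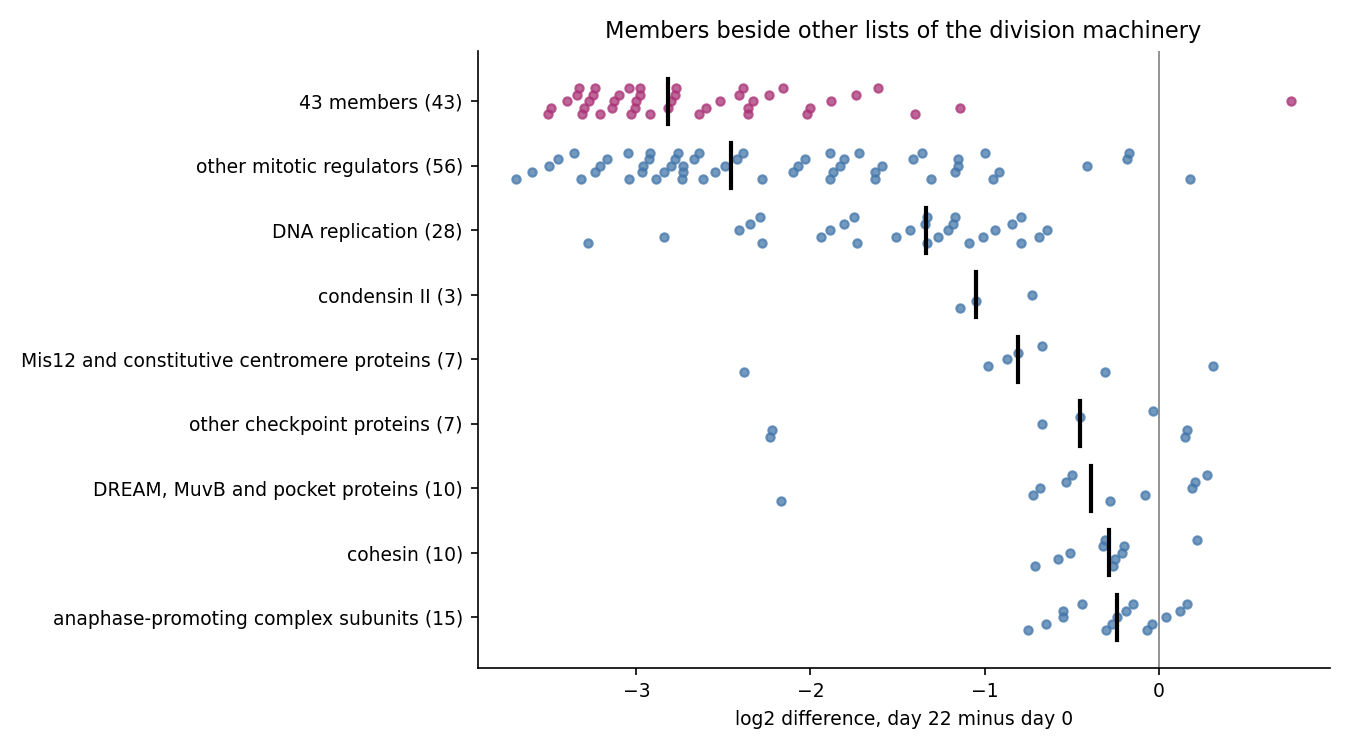
Log2 difference between day 22 and day 0 for the 43 mitotic genes (top) and for genes of 8 other lists, 1 point a gene with the number tested in brackets; the upright bar is the median. The medians run from -2.82 in the 43 genes and -2.46 in other mitotic regulators to -0.29 in cohesin and -0.24 in the anaphase-promoting complex.

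Markers of the cells that could hold the divisions changed in other ways over the same days. Marker counts are to be read against the 27.3% of all features called lower on day 22 than on day 0 and the 17.1% called higher. Under the table's batches these shares were 19.2% and 13.0%. Of the Schwann cell markers 33.3% were called lower and of the neuron markers 16.7%, which is near or below the share of all features. Among 5 macrophage markers tested, 4 were higher on day 22 than on day 0: Ctss by 3.92 ± 0.48, Adgre1 by 3.34 ± 0.42, Aif1 by 2.88 ± 0.56 and Csf1r by 2.59 ± 0.42 on the log2 scale (SE, called under both batch assignments); Itgam, at -0.67, was not called. The summed macrophage level, as the mean log2 deviation per array, ran from -2.23 to -0.61 on day 0, from -0.62 to 0.68 on day 10 and from 0.21 to 1.98 on day 22. Among Schwann cell markers, Sox10 (-0.62) and Erbb3 (-0.93) were lower on day 22 than on day 0, S100b (0.60) was higher and Cdh19 (-0.21) was not called, and the summed level overlapped between all days, from -0.75 to 0.21. Of 6 neuron markers only Elavl3 was lower, at -0.68, and the summed level overlapped as well, from -0.60 to 0.37.

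Fibroblast markers split, with Col1a1 (-0.65) and Col3a1 (-1.02) lower and Lum (2.72), Pdgfra (1.62) and Dcn (1.23) higher on day 22 than on day 0, and their summed level overlapped between days, from -1.48 to 0.78. Of 5 endothelial markers, Cldn5 (-1.72) and Pecam1 (-0.30) were lower, and Cldn5 was not well above background on any array of day 22. On the low array of day 22 the summed macrophage level was 0.21, the lowest of that day, and the Schwann cell level 0.09, within its range. The neuron level was 0.15 there, the fibroblast level -0.05 and the endothelial level -0.20, none of them the lowest of that day. On the low array of day 10 the summed neuron level was 0.37, the highest of that day. Under the table's batches 1 Schwann cell marker was lower and none higher, 2 fibroblast markers were lower and 1 higher, and 1 endothelial marker was lower. The part of these markers in the mitotic gene levels was not tested.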

How the data were processed

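Total RNA of 18 samples was amplified and labelled with Cy3 and hybridised to one-colour Agilent arrays, per the labels' protocols. The authors scanned them with Agilent Feature Extraction 10.7.1.1, per the file headers, on a design drawn from mm9. The deposited array files give each spot's processed intensity, which Feature Extraction had corrected for background, with its flags. The deposited value table of the whole series holds intensity values of the same arrays, on a linear scale, each column with a median of 33.7; how it was normalized is not given in the sources used here, and its columns were matched to the arrays by their values.

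From these, log2 of the processed intensity minus the array's 75th percentile over non-control spots was computed, after outlier spots were left out. Probes had to be well above background on each of the 6 arrays of some day, and 30432 of 55681 probes passed. Symbols came from RefSeq through accessions, for 26582 probes. The brightest probe stood for a gene, which gave 22855 features. The 2 arrays of a batch were averaged, and days were compared with limma 3.58.1 (lmFit and eBayes, R 4.3.3) on 9 batch values, with Benjamini-Hochberg adjustment over all features at 0.05. Fits were tested on simulated data. Precision is limited by how many arrays there were.

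The labels' text says that replicate numbers mark batches of cultures, so batches were also fitted as a block. Correlations of same-numbered deviations ran from -0.13 to 0.37 for the array files' batches (6 of 9 above 0.1) and from -0.08 to 0.46 for the value table's batches (8 of 9). Arrays of a batch differed by a median SD of 0.21 under the first assignment and 0.17 under the second, and batch means by 0.15 and 0.18. Over all features, the estimated correlation between arrays of a batch was -0.02 under the first assignment and 0.36 under the second. Arrays of a batch were thus more alike under the table's batches.

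Alternatives were the batches of the value table, the block, single arrays with a random batch, normexp (offset 50) with quantile normalization, the authors' table, other filters on dim probes, mean probes, slides, and each batch left out. The normexp fit used the median spot signal, since the files lack the mean signal planned for it. Leaving out the low arrays was chosen after seeing the data. All 43 genes could be named; from each other list, the 3 with the largest called change from day 0 to day 22 and the 2 with the smallest change could be named, and the others named (Wapl, Ska2, Bub3, Cdh19 and other markers among them) were chosen after their values were seen. The genes and lists were chosen with earlier results of these data known. Some Schwann cell markers are not reported here by name.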

Additional observations from a re-analysis of the deposited data

Results flagged for a closer look

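Of 129 sets of 6 arrays (43 genes on 3 days), 16 held an array farther from the rest than Dixon's limit at 95%; chance alone marks about 1 set in 20. The low array of day 22 (batch 3, array 1) accounts for 14 of them, each time below the other 5 arrays of that day. Its log2 level was -0.91 for Mki67, where the others ran from 1.04 to 1.63, -3.21 for Top2a, -3.35 for Cdk1 and -2.01 for Ccna2. Among kinases and kinetochore genes it was -4.74 for Bub1, -5.56 for Nek2, -4.76 for Ndc80, -4.01 for Spc24 and 0.50 for Spc25. Among spindle and cytokinesis genes it was -5.65 for Kif11, -2.0 for Kif20a, -5.47 for Kif4, -3.76 for Nusap1 and -2.46 for Ect2. The mean of the 43 genes on this array was -2.39. The cause was not tested.

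On the low array of day 10 (batch 3, array 2), Kif11 stood at -2.45, where the other 5 arrays ran from -1.86 to -1.70. On day 0, Cks2 stood at -0.79 on batch 2, array 2, where the others ran from -0.52 to -0.40.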

How the results depend on the processing

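The count of 42 genes lower on day 22 than on day 0 stayed within 1.5 times under every alternative run, and no gene changed direction in any. For day 10 against day 0, where 41 were lower, the table's batches with the replicate block gave 26, the authors' values gave 25, slide 1 alone 22 and slide 2 alone 1. For day 22 against day 10, where 41 were lower, slides 1 and 2 alone each gave 0, with few arrays a day; all 42 falling genes kept their sign there. The replicate block with the batches of the array files gave 41 for day 10 against day 0. Leaving out each batch in turn gave 33 to 42 genes for day 10 against day 0, 37 to 42 for day 22 against day 10, 42 to 42 for day 22 against day 0 and 0 to 3 for the contrast of the intervals. That contrast, called in 2 genes, was called in 1 with the replicate block of the array files, single arrays, normexp and quantile, no filter, a filter on all arrays or without the low array of day 22. It was called in 0 with the table's batches (with or without the replicate block or the low arrays), with the authors' values and either slide alone, and in 3 without both low arrays. For most of these fits the share of all features called is not given, so the counts show only how the calls moved. The causes were not tested. Signal over background limits Cenpf, Ttk and Ncapg on days 10 and 22, and the unsettled batches limit the calls of single intervals. On day 22, Kif11, Kif4, Kif2c and Nek2 were well above background on 5 of the 6 arrays.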
